A study of Capsicum annuum with 4 samples.

Results

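The pepper genes described here are the homologs of 2 tomato aroma genes, TomloxC and NSGT1. They were chosen by name, as every pepper gene that the study's list of homologs of tomato ripening genes gives for either name. The rule itself does not use expression, but the 2 names were chosen with earlier results of these data known. The rule found 4 genes, 3 for TomloxC and 1 for NSGT1, among the 38 pepper genes on that list and the 35884 gene models counted. The fruits came from wild Chiltepin (CH), Capsicum annuum var. glabriusculum, grown in a greenhouse, and no treatment or genetic change is named for either stage. Immature green fruits were taken at 20 days after anthesis (DAA) and mature red fruits at 68 DAA, with 2 libraries per stage. Each library held RNA pooled from 6 whole fruits, with pericarp, placenta and seeds together, and each replicate was a separate collection of fruits. A change in such whole-fruit RNA cannot tell apart fewer cells of a type and less RNA per cell.

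In tomato, TomloxC is a plastid lipoxygenase of the fruit that adds oxygen to free fatty acids. The hydroperoxides it makes are cut and reduced by later enzymes to short aldehydes and alcohols with green, fresh notes. NSGT1, named in tomato for "non-smoky" fruit, is a glycosyltransferase that adds a further sugar to the glycosides of phenylpropanoid volatiles. Fruit enzymes no longer free the volatile from the resulting conjugate when the tissue is broken. Roles in pepper are taken here from the tomato names alone.

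Counts on genes lay between 12139415 and 26130664 per library, the smallest in replicate 1 at 68 DAA. A level of 3 counts, the limit that a count of 0 allows, was worth between 0.111 and 0.257 CPM, the counts scaled to library size by the usual counts-per-million measure. Such limits and all intervals of counts below cover counting error only. The stage labels were checked on a few chosen genes of the same list with known roles in fruit colour and softening. The 5 chosen as mature-stage markers (SGR1, PSY1, PG2 and both MADS-RIN genes) were higher at 68 DAA. GLK2, which acts in chloroplast development of green fruit, was lower. Other ripening genes of the list were also lower, among them FUL2 (log2 fold change -4.69), Alpha-mannosidase (-2.98) and LeSPL-CNR (-7.27). On the whole list, 8 genes were called lower and 6 higher at 68 DAA, against 18.7% and 8.22% of all tested genes.

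The leading TomloxC gene, CA.PGAv.1.6.scaffold649.19, was highly expressed in green fruits and low in red ones. Its counts were 40972 and 40976 at 20 DAA against 30 and 55 at 68 DAA. These were 1519 and 1747 CPM in the green libraries and 2.57 and 2.42 CPM in the red ones. The 2 stages did not overlap, and the replicates within each stage lay close together.

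The mean of TomloxC scaffold649.19 was 1633 ± 161 CPM (SD, n = 2 libraries) at 20 DAA and 2.49 ± 0.103 CPM (SD, n = 2 libraries) at 68 DAA, a 655-fold lower level. In the contrast of the stages (Ch20-Ch68) the log2 fold change was -9.36, with a standard error of 0.24 and a 95% interval from -9.84 to -8.88. This and the other intervals of log2 fold changes use the normal distribution, which makes them too narrow for 2 libraries per stage. The adjusted p was 7.43e-06 by edgeR's quasi-likelihood test with Benjamini-Hochberg adjustment, over the 17160 genes whose log2 CPM averaged 1 or more. Genes that changed 4-fold or more with an FDR below 0.01 are called differentially expressed genes (DEGs), and TomloxC scaffold649.19 was one of them.

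DEGs were common in this contrast. They were 26.9% of the tested genes (4615 genes), of which 18.7% of tested genes were lower at 68 DAA and 8.22% were higher. Both libraries of one stage lay above both of the other in 87.1% of tested genes, so the absence of overlap alone says little about any gene. The size of the change can be ranked only among genes counted at both stages. Of 15762 tested genes above 3 counts in every library, 46 had a lower log2 fold change than TomloxC scaffold649.19.

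The counts of the 2 green libraries made TomloxC scaffold649.19 the gene with the 28th highest mean CPM of all tested genes. Its share of a library's gene counts was 0.165% and 0.192% in green fruits, and 0.000247% and 0.00021% in red ones. Per kilobase of coding length, its mean was 606 ± 59.8 CPM per kb (SD, n = 2 libraries) at 20 DAA, which is the 98.9 percentile of tested genes. At 68 DAA it was 0.925 ± 0.0381 CPM per kb (SD, n = 2 libraries), the 10.6 percentile. The gene thus moved from near the top of the tested genes to among the lower levels. At 68 DAA the counts still lay above 0, with exact Poisson 95% intervals from 20.2 to 42.8 counts in replicate 1 and from 41.4 to 71.6 in replicate 2.

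**Figure D1:**
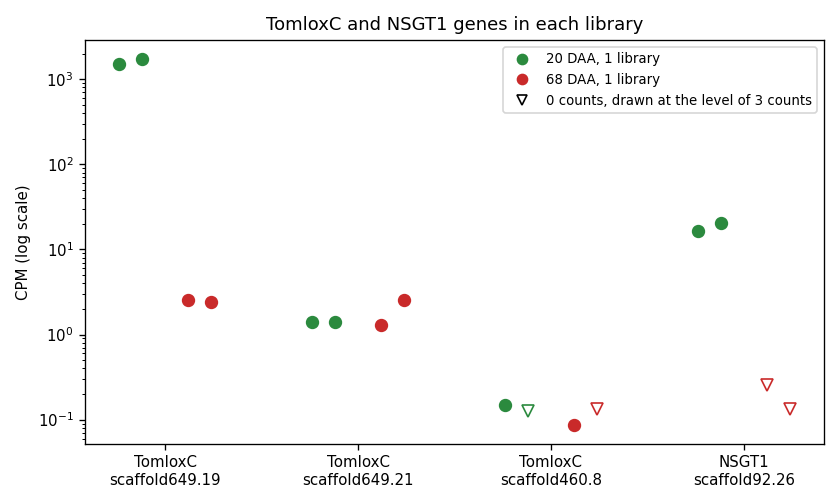
CPM (log axis) of the 4 TomloxC and NSGT1 genes in each library at 20 DAA and 68 DAA, with 1 point per library and open triangles for a count of 0, drawn at the level of 3 counts. TomloxC scaffold649.19 lay at 1519 and 1747 CPM in green fruits and at 2.57 and 2.42 in red ones, and NSGT1 lay at 16.3 and 20.3 CPM in green fruits with no count in red ones.

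NSGT1, CA.PGAv.1.6.scaffold92.26, was expressed at a moderate level in green fruits and was not detected in red ones. It had 439 and 477 counts at 20 DAA, or 16.3 and 20.3 CPM, and 0 counts in both libraries at 68 DAA. The stages did not overlap. The mean at 20 DAA was 18.3 ± 2.87 CPM (SD, n = 2 libraries). Set against 3 counts per library, the level at 68 DAA was at least 94.2-fold lower, with an adjusted p of 7.01e-05 by edgeR's quasi-likelihood test. With no count at 68 DAA, NSGT1 entered that test only through its counts at 20 DAA. In a fit without the limit on average log2 CPM, the adjusted p was 5.7e-08 by the same test.

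Among all tested genes, 269 were at 0 counts in both red libraries, with a median of 8.07 CPM at 20 DAA. Genes at 0 there could pass the limit on average log2 CPM only through their counts at 20 DAA. That limit shapes the median and any rank within the set, so both are given as a description. NSGT1 was near the upper end of these 269 genes, since 41 of them had a higher mean CPM at 20 DAA. Among the tested genes on the ripening list it was the 1 gene at 0 in both red libraries. The untested AP2 gene (5 and 2 counts at 20 DAA) and CHS1 scaffold305.2 (0 in every library) were also at 0 there. Per kilobase, NSGT1 reached 15.5 and 19.4 CPM per kb at 20 DAA, which put it at the 49.5 percentile of tested genes.

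Both tested genes were thus DEGs lower at 68 DAA, as were 18.7% of all tested genes, but the sizes of their changes could not be put in order. A decrease as large as that of TomloxC scaffold649.19 would leave 0.327 and 0.635 counts of NSGT1 in the red libraries, and neither value can be told from 0 at this depth. In green fruits the order was clear. The CPM of TomloxC scaffold649.19 was 93.3 and 85.9 times that of NSGT1 in the 2 libraries. Per kilobase, the mean level was 34.7 times that of NSGT1.

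**Figure D2:**
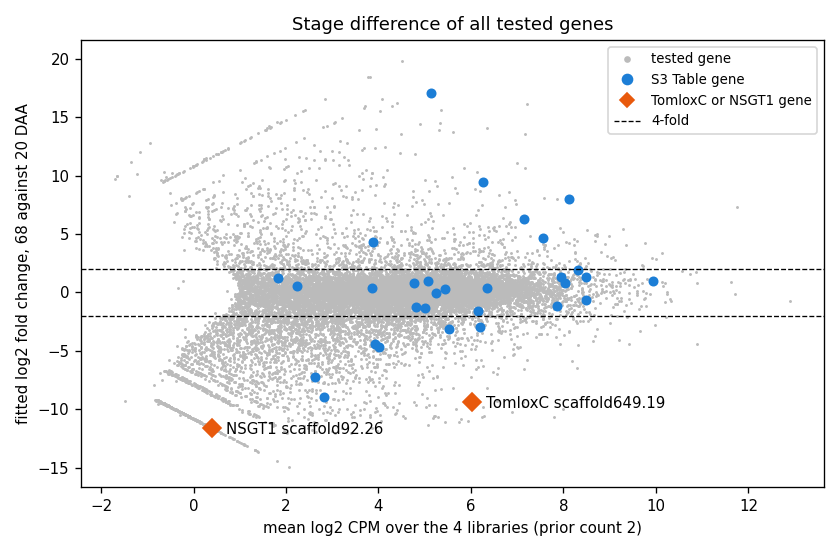
Fitted log2 fold change of 68 against 20 DAA (vertical axis) against average log2 CPM (horizontal axis) for the 17160 tested genes, drawn in grey. Tested genes of the ripening list are in blue whether or not they were DEGs, and the tested TomloxC and NSGT1 genes in orange. Dashed lines mark the 4-fold limits. TomloxC scaffold649.19 lay at -9.36, and the fitted position of NSGT1 is no measured size because it had no count at 68 DAA.

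The other TomloxC genes were scarcely expressed at either stage and lay under the expression limit. The gene CA.PGAv.1.6.scaffold649.21 had 38 and 33 counts at 20 DAA and 15 and 58 counts at 68 DAA. In CPM these were 1.41 and 1.41 against 1.28 and 2.55, so the stages overlapped. Its means were 1.41 ± 0.00136 CPM at 20 DAA and 1.92 ± 0.898 CPM at 68 DAA (SD, n = 2 libraries each). In a fit without the expression limit, in which 23.9% of 27380 genes were DEGs, its log2 fold change was 0.47 with a standard error of 0.42. The 95% interval ran from -0.35 to 1.29 and the adjusted p was 0.374 by edgeR's quasi-likelihood test. A decrease such as that of scaffold649.19 lies far outside that interval.

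The third TomloxC gene, CA.PGAv.1.6.scaffold460.8, had 4 and 0 counts at 20 DAA and 1 and 0 at 68 DAA. These lie at or about the limit that a count of 0 allows, so a difference between the stages was not detectable at this depth. The adjusted p without the expression limit was 0.614 by edgeR's quasi-likelihood test.

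Because scaffold649.19 was so abundant in green fruits, it made up nearly all TomloxC counts there. Of the counts on the 3 genes, its share was 99.9% in both libraries at 20 DAA, with exact Clopper-Pearson 95% intervals from 99.86% to 99.93% and from 99.89% to 99.94%. At 68 DAA its share was 65.2% (49.8% to 78.6%) in replicate 1 and 48.7% (39.2% to 58.3%) in replicate 2. The remainder at 68 DAA was nearly all scaffold649.21, at 32.6% and 51.3%.

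Per kilobase, the order of the 2 chromosome 1 genes turned over between the stages. At 20 DAA, scaffold649.19 was 152 and 175 times as high as scaffold649.21, in CPM per kb. At 68 DAA, scaffold649.21 was 3.54 and 7.46 times as high as scaffold649.19. The levels of scaffold649.21 were 3.70 and 3.69 CPM per kb at 20 DAA and 3.37 and 6.70 at 68 DAA, while scaffold649.19 lay at 0.952 and 0.898 at 68 DAA. The stages overlapped for scaffold649.21 and did not for scaffold649.19. The log2 ratio of their counts was 10.07 and 10.28 at 20 DAA and 1.00 and -0.08 at 68 DAA, a mean difference of 9.71. An exact permutation test of that difference gave p = 0.333 (two-sided), the smallest that 2 against 2 libraries can give.

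**Figure D3:**
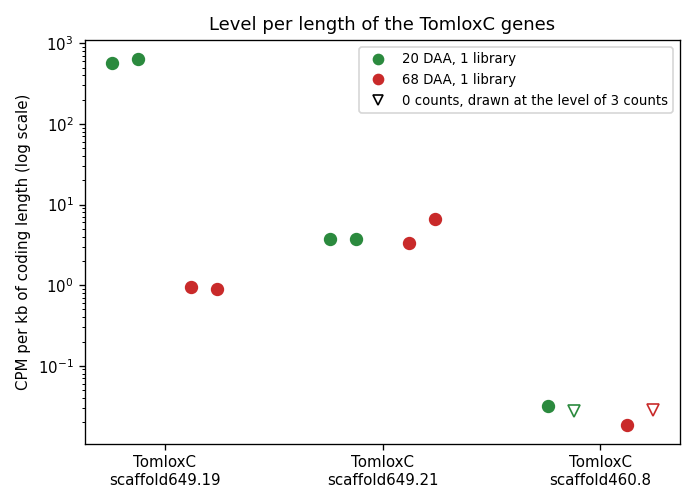
CPM per kb of coding length (log axis) of the 3 TomloxC genes at 20 DAA and 68 DAA, with 1 point per library. TomloxC scaffold649.19 lay far above scaffold649.21 in green fruits and below it in both red libraries.

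The gene models of these homologs differed in length and structure. On the CM334 genome version 1.6, TomloxC scaffold649.19 lies on the minus strand of chromosome 1, from 62648992 to 62662231. It has 10 exons and 2697 bp of coding length, or 899 codons, and its first intron, of 4738 bp, takes 35.8% of the 13240 bp span. The summed exon lengths of all 35884 models are multiples of 3, so the models appear to hold no UTRs, and exon lengths are taken here as coding.

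The other 2 TomloxC models are a short and a long one. The gene scaffold649.21 lies on the plus strand of chromosome 1, from 62419183 to 62419563, in 1 exon. Its 381 bp, or 127 codons, are 14.1% of the coding length of scaffold649.19, and 229.428 kb separate both genes. The gene scaffold460.8 lies on the plus strand of chromosome 2, from 22198040 to 22208936, with 13 exons and 4698 bp (1566 codons). Reads of closely similar copies can be hard to assign to 1 gene, and how far this touched the counts of the 3 TomloxC genes was not tested.

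NSGT1 lies on the plus strand of chromosome 10, from 173792306 to 173793550. It has 2 exons of 575 and 475 bp around an intron of 195 bp, and its coding length is 1050 bp (350 codons).

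The study's list pairs each of the 4 genes with a gene of the Zunla-1 annotation, and all 4 of these were found in the RefSeq annotation of the UCD10Xv1.1 pepper assembly. The partners of scaffold649.19 and scaffold649.21 and that of NSGT1 are annotated there as protein-coding, and that of scaffold649.19 carries the synonym LOX. The partner of scaffold460.8, the gene with the fewest counts of the 4, is annotated as a pseudogene. In that assembly the 3 TomloxC partners share a chromosome, with 5 and 8 genes between consecutive ones, whereas CM334 places scaffold460.8 on another chromosome than the other TomloxC genes. The partner of NSGT1 also has another chromosome number there than NSGT1 has in CM334, so the place of NSGT1 and its neighbours hold for CM334 only.

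Gene models next to TomloxC scaffold649.19 and NSGT1 were looked up for their own change, since position was not used to choose the 4 genes. Within 2 models on either side of these genes there were 7 neighbours that are not TomloxC genes themselves. Of these, 4 were tested, 3 being DEGs lower and 1 a DEG higher at 68 DAA, where 18.7% of all tested genes were DEGs lower and 8.22% higher. The remaining 3 were not tested. Neighbours with few counts at 68 DAA could pass the expression limit only through their counts at 20 DAA, so these calls are given as a description. The change was not shared by all models around TomloxC scaffold649.19. The next model on its higher-coordinate side, 77.971 kb away, had 29 and 16 counts at 20 DAA and 270 and 855 at 68 DAA. It was 34.6-fold higher at 68 DAA (log2 fold change 5.10, standard error 0.36, adjusted p 9.1e-05 by edgeR). The second model on that side had 79 and 83 counts at 20 DAA and 6 and 19 at 68 DAA, a DEG with a log2 fold change of -2.19. On the other side, the model between the chromosome 1 TomloxC genes had 41 and 66 counts against 3 and 8, under the expression limit.

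Around NSGT1, the nearer model on the higher-coordinate side, 12.352 kb away, had 159 and 61 counts at 20 DAA and 0 and 1 at 68 DAA. It was at least 21.9-fold lower at 68 DAA and a DEG (adjusted p 0.000909 by edgeR). The next on that side had 101 and 95 counts against 15 and 14, with a log2 fold change of -2.12. The 2 models on the other side had at most 8 counts in any library and were not tested.

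**Figure D4:**
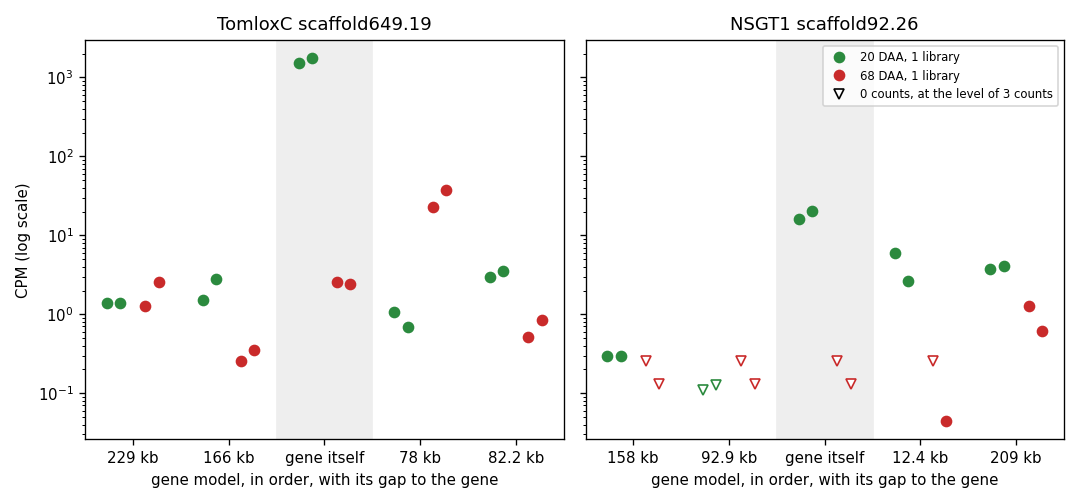
CPM (log axis) in each library of TomloxC scaffold649.19 (left) and NSGT1 (right), shaded, and of the 2 gene models on each side of them in order of position, each labelled with its gap in kb. The model 78 kb from TomloxC was higher at 68 DAA, while the tested neighbours of NSGT1 were lower at 68 DAA.

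The 2 other genes of the list with a role near these pathways were not called, and whether their changes differed from that of TomloxC was not tested. SlscADH1, the homolog of a tomato short-chain alcohol dehydrogenase that acts on aldehydes and alcohols of the aroma, had 119 and 83 counts at 20 DAA and 101 and 77 at 68 DAA. Its means were 3.98 ± 0.618 CPM and 6.02 ± 3.71 CPM (SD, n = 2 libraries each), and the stages overlapped. The log2 fold change was 0.55, with a standard error of 0.46 and a 95% interval from -0.35 to 1.46 (adjusted p 0.320 by edgeR). The single 68 DAA library of replicate 1 set the sign, and without it the log2 fold change was -0.16 (adjusted p 0.631 by edgeR). Without replicate 2 at 68 DAA it was 1.14 (adjusted p 0.00746 by edgeR), under the 4-fold limit of a DEG. The hydroquinone glucosyltransferase homolog, the other glycosyltransferase on the list, had 0 and 1 counts at each stage and was not tested.

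On the whole list, 32 genes were tested and 14 were DEGs, 8 lower and 6 higher at 68 DAA, and 18 were not called. Of all tested genes, 26.9% were DEGs, 18.7% lower and 8.22% higher. Without TomloxC and NSGT1 the list had 6 DEGs in each direction among 30 tested genes. The median log2 fold change of the tested list was 0.38, against -0.04 over all tested genes. TomloxC scaffold649.19 had the highest mean CPM of the list at 20 DAA and the second highest per kilobase, whereas NSGT1 was 23rd per kilobase among the 38 genes. GLK2, at -8.99, and LeSPL-CNR, homolog of a tomato ripening regulator, at -7.27, were the genes of the list with the log2 fold changes nearest to that of TomloxC scaffold649.19. The place of NSGT1 among these was not measured, since its fold is only a lower bound.

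**Figure D5:**
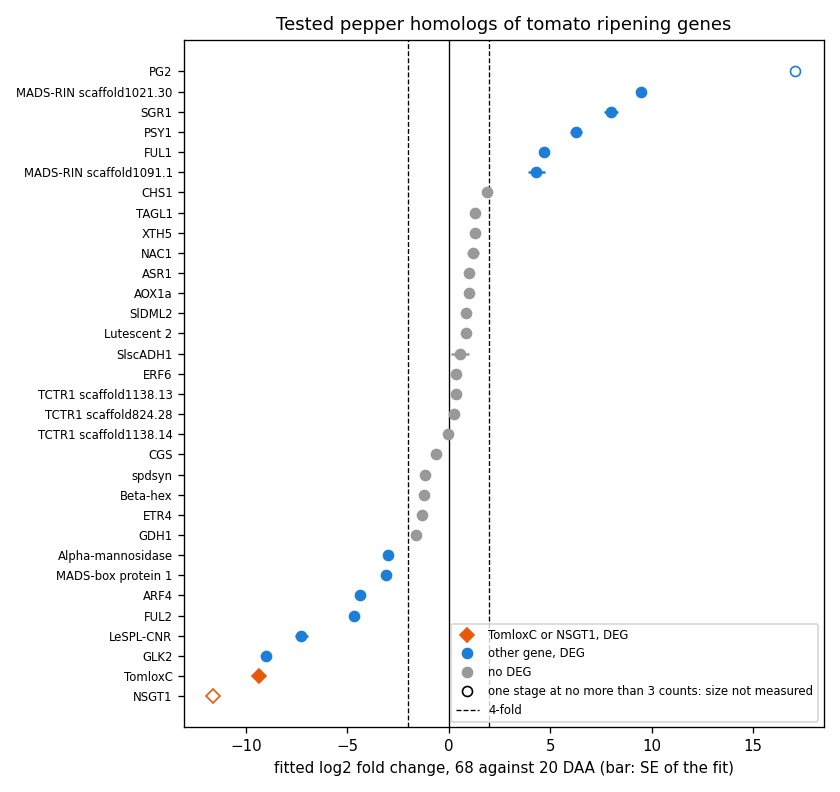
Fitted log2 fold change of 68 against 20 DAA for the 32 tested pepper homologs of tomato ripening genes, with bars for the standard error and dashed lines at 4-fold. TomloxC lay at -9.36 and GLK2 at -8.99, and open symbols mark NSGT1 and PG2, which had no more than 3 counts at one stage, so that their size and order were not measured.

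Likeness of pattern was measured as the mean absolute difference in log2 CPM (prior count 2) over the 4 libraries, which share their depth and stage. On the ripening list, FUL2 (2.32), ARF4 (2.48) and MADS-box protein 1 (3.11) lay nearest to TomloxC scaffold649.19. FUL2 and MADS-box protein 1 are MADS-box genes and ARF4 is an auxin response factor. Their mean levels at 20 DAA lay between 67.8 and 134 CPM, below that of TomloxC scaffold649.19. Over all 17159 other tested genes, 22 lay within 1 log2 unit. The nearest, CA.PGAv.1.6.scaffold1226.38, had 63419 and 51977 counts at 20 DAA and 26 and 61 at 68 DAA, and the table used here gave it no name.

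For NSGT1, the nearest genes of the list were LeSPL-CNR (2.24), GLK2 (2.43) and ARF4 (3.52), and 497 tested genes lay within 1 log2 unit. The nearest of all, CA.PGAv.1.6.scaffold416.33, had 487 and 480 counts at 20 DAA and 0 at 68 DAA in both libraries. At 68 DAA the distances between such genes rest on the prior count, because both had no counts there.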

How the data were processed

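RNA-Seq counts of 4 Chiltepin libraries were analysed, 2 at 20 DAA and 2 at 68 DAA. Raw, unnormalized counts per gene were deposited by the authors, who used Trimmomatic 0.36, HISAT2 2.1.0 and HTSeq-count 0.11.0 in union mode on the CM334 gene models. The strand setting is not given in the sources used here. Entries that name no gene (31.7% to 38.2%) were left out.

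Counts were tested with edgeR 4.0.16 in R 4.3.3 (TMM, quasi-likelihood test, Benjamini-Hochberg adjustment) on genes whose log2 CPM averaged 1 or more. DEGs had an FDR under 0.01 and at least 4-fold change. The standard error is the log2 fold change over the square root of the F statistic. Intervals of log2 fold changes were set from it by the normal distribution, without allowance for the few libraries. Folds against stages with at most 3 counts per library were set against 3 counts and are lower bounds. The procedure was also run on simulated counts with a dispersion common to all genes. The fit to the real counts did not assume this, so that run does not measure error rates here.

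Named genes were the 4 TomloxC and NSGT1 genes, SlscADH1, the hydroquinone glucosyltransferase, stage markers, the 3 genes of the list and at most 2 unnamed genes nearest in pattern, and neighbours by place. GLK2 and LeSPL-CNR were also named for log2 fold changes near that of TomloxC, a choice made after their values were seen. The genes and lists were chosen with earlier results of these data known. Alternatives were DESeq2 1.42.0, the likelihood ratio test, other scalings, filters and limits, a replicate block and leaving out each library. The libraries of Serrano were not used here.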

Additional observations from a re-analysis of the deposited data

How the results depend on the processing

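TomloxC scaffold649.19 and NSGT1 were DEGs lower at 68 DAA under all 12 alternatives run. In the main fit, 18.7% of all tested genes were DEGs lower at 68 DAA. Over the 11 that gave a log2 fold change, TomloxC scaffold649.19 lay between -9.63 and -9.28 (largest adjusted p 0.00011 by the tool of each fit), and NSGT1 had a largest adjusted p of 0.000801. Libraries of the same replicate number showed no shared deviation from their stage means (correlation of deviations 0.025, 2 pairs). With 2 libraries per stage the 2 pairs mirror each other, so this value cannot show whether the libraries were paired. With a replicate block the DEGs were 4665, and TomloxC scaffold649.19 had a log2 fold change of -9.37. Leaving out each library in turn gave 4151 to 4806 DEGs, with the lone library of a stage assumed to vary like the others. DEGs were 3012 with a log2 CPM limit of 3 and 9904 without the fold limit, which also gave 25 DEGs on the ripening list (12 lower, 13 higher). DEGs of all genes were 6536 without the expression limit. With library totals only, the median log2 fold change of all tested genes moved from -0.04 to -0.30. For scaffold649.21 the difference of mean CPM (68 minus 20 DAA) was 0.51, and -0.10 to 1.26 without 1 library. For SlscADH1 the log2 fold change was -0.16 to 1.14 without 1 library, the lowest without CH 68DAA replicate 1 (adjusted p 0.631 by edgeR) and the highest without CH 68DAA replicate 2 (adjusted p 0.00746, less than 4-fold). The cause was not tested. The depth of 12139415 counts in CH 68DAA replicate 1 limits what can be said of genes with few counts.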

Other observations

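The gene model between the 2 chromosome 1 TomloxC genes, 166.119 kb from scaffold649.19, has 10 exons and 2730 bp of coding length, against 10 exons and 2697 bp in scaffold649.19. Its exons 2 to 5 are 111, 305, 267 and 341 bp long, and exons 6 to 9 of scaffold649.19 are 111, 302, 267 and 341 bp long. This was noticed after the values were seen, and the model has no name on the list used here. It had 41 and 66 counts at 20 DAA and 3 and 8 at 68 DAA, and in the edgeR fit without the expression limit its log2 fold change was -2.77 with a standard error of 0.54 (adjusted p 0.00113).

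A second unnamed gene near the pattern of TomloxC scaffold649.19, CA.PGAv.1.6.scaffold345.4, had 48291 and 33089 counts at 20 DAA and 19 and 34 at 68 DAA, a 1025-fold lower level at 68 DAA.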
